A study of Mus musculus with 8 samples.

Results

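The genes described here are 9 G protein-coupled receptors of islet cells, namely *Glp1r*, *Gipr*, *Gcgr*, *Ffar1*, *Adra2a*, *Sstr3*, *Ghsr*, *Gabbr2* and *Oxtr*. They were chosen by symbol from the 30406 gene identifiers shared by all libraries, and all 9 were found. Islets of C57BL/6 mice (C57BL6/J in the study's methods, male, 12 to 16 weeks of age) were examined by droplet-based single-cell RNA sequencing in 2 replicates, each starting from the pooled islets of 10 mice that were then divided over 4 conditions. The conditions were untreated islets, islets exposed for 18 h to the cytokines IL-1β (10 U/mL) and IFN-γ (150 U/mL), islets exposed to the same cytokines with 2 mM NMMA, an inhibitor of nitric oxide synthases, and islets given 2 mM NMMA alone. All groups were held in medium with 5.5 mM glucose. The 8 libraries held between 26549922 and 50731370 UMIs (unique molecular identifiers, each standing for 1 captured RNA molecule), and 10876 of 17426 barcodes passed the filters on genes and mitochondrial UMIs. Receptors were followed in 6268 β-cells, 645 α-cells and 325 δ-cells.

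G protein-coupled receptors pass extracellular signals to heterotrimeric G proteins. In β-cells, receptors coupled to Gs raise cAMP and potentiate glucose-stimulated insulin secretion, receptors coupled to Gq act through phospholipase C and calcium, and receptors coupled to Gi lower cAMP and restrain secretion. *Glp1r* and *Gipr* encode the receptors of the incretin hormones GLP-1 and GIP, *Gcgr* the receptor of glucagon, and *Ffar1* a receptor of long-chain fatty acids. *Adra2a* encodes the α2A adrenergic receptor, *Sstr3* a somatostatin receptor, and *Gabbr2* a subunit of the GABA-B receptor, all 3 coupled to Gi. *Ghsr* encodes the ghrelin receptor and *Oxtr* the oxytocin receptor.

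In GRCm38 (GENCODE M21 annotation), *Glp1r* (ENSMUSG00000024027) lies at chr17:30901817-30940791 on the plus strand, *Gipr* (ENSMUSG00000030406) at chr7:19156061-19166127 on the minus strand and *Gcgr* (ENSMUSG00000025127) at chr11:120530699-120538986 on the plus strand. *Ffar1* (ENSMUSG00000044453) lies at chr7:30857390-30861564 on the minus strand, *Adra2a* (ENSMUSG00000033717) at chr19:54044151-54048982 on the plus strand and *Sstr3* (ENSMUSG00000044933) at chr15:78537008-78544685 on the minus strand. *Ghsr* (ENSMUSG00000051136) lies at chr3:27371351-27378010 on the plus strand, *Gabbr2* (ENSMUSG00000039809) at chr4:46662305-46991873 on the minus strand and *Oxtr* (ENSMUSG00000049112) at chr6:112473683-112489943 on the minus strand. All 9 are protein-coding genes. *Glp1r* overlaps 2 annotated genes and *Gcgr* 1 annotated gene, each on the opposite strand.

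RefSeq promoter entries (GRCm38.p6) were matched for 8 of the 9 receptors, all but *Gipr*, and the 250 bases before the RefSeq start were searched on both strands. The motifs reported are an interferon-stimulated response element, found in 2.977% of 32851 promoters of the same length, an NF-κB element, found in 1.412%, TGACGTCA (a cAMP response element), found in 1.546%, and its shorter core TGACG, which every TGACGTCA contains, found in 17.77%. Of these, only TGACG was matched among the receptors, in the *Adra2a* promoter at position -69 and in 1 of the 2 *Sstr3* promoters at position -9, both counted from the RefSeq start. Both of these entries lie inside the annotated GENCODE gene. The *Adra2a* entry therefore holds no bases upstream of the GENCODE start and is not shown, although this gene also fell in β-cells. The bases upstream of both the RefSeq and the GENCODE start are given 5′ to 3′ for 4 receptors that had an entry and fell in the comparisons described below. They are chr7:30861565-30861720 (minus strand), chr11:120530477-120530698 (plus strand) and chr4:46991874-46991964 (minus strand), whose genes fell in β-cells, and chr6:112489944-112490075 (minus strand), whose gene fell in α-cells. No capitals appear because none of these motifs was found in them, and G and C made up 57.05% of the *Ffar1*, 69.82% of the *Gcgr*, 85.71% of the *Gabbr2* and 59.09% of the *Oxtr* sequence, against a median of 52.4% over all promoters of 250 bases.
Ffar1: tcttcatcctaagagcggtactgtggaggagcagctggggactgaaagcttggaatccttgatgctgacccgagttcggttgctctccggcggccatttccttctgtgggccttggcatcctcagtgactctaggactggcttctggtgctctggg
Gcgr: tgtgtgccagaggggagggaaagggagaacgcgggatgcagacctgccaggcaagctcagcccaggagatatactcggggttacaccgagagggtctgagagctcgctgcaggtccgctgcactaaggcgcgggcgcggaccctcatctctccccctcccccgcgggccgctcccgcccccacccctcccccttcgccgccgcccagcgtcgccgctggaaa
Gabbr2: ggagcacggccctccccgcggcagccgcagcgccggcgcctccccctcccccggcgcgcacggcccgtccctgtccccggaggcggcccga
Oxtr: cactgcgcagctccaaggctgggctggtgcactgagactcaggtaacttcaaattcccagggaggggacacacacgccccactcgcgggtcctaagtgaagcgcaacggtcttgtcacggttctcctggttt

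The classes were named by the marker lists read here, so the levels below describe the classes and cannot check their names. In β-cells, *Ins2*, which encodes insulin 2, was the most abundant of 10 β-cell markers in all 8 libraries. The 10 α-cell markers in α-cells were led by the glucagon gene *Gcg*, and the 10 δ-cell markers in δ-cells by the somatostatin gene *Sst*. Of the δ-cell markers, *Lepr* was at 0 in all 8 δ-cell sums and *Prg4* and *Bche* each in 7 of them. The δ-cell sums also held the 6 markers of PP-cells, which make pancreatic polypeptide. These summed to 91020 and 133800 CPM in the untreated δ-cell sums of replicates 1 and 2, where the δ-cell markers summed to 83180 and 63930 CPM, and they were above the δ-cell markers in 6 of 8 δ-cell sums, led by *Pyy*, which encodes peptide YY. In the α-cell sums the PP-cell markers reached from 30280 CPM (NMMA, replicate 1) to 89220 CPM (cytokines and NMMA, replicate 2), led by *Ppy* or *Pyy*, and in the latter they were above the α-cell markers (85750 CPM). Among the PP-cell markers *Vsig1* and *Aqp3* were at 0 in all 8 δ-cell sums and in 7 of the 8 α-cell sums. The α-cell sums held β-cell markers too, with a summed level of 11080 and 12640 CPM in the untreated libraries of replicates 1 and 2, 38040 and 47720 with cytokines, 27130 and 61890 with cytokines and NMMA, and 12680 and 11810 with NMMA. *Ins2* was the most abundant of them in each. Values in CPM, a scale on which the UMIs of a library add up to the same total, are UMIs summed over the cells of a class in a library, scaled with the TMM method except where markers are summed.

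Some libraries stood apart. The cytokine libraries held only 11 and 10 δ-cells, against 85 and 40 in the untreated libraries. Low-UMI cells that were left unnamed took 44.6% of the kept barcodes of the untreated library of replicate 2 and 2.51% of that of replicate 1. Cells of clusters led by insulin, also left unnamed, numbered 134 and 63 in the untreated libraries, 1 and 0 with cytokines, 0 and 2 with cytokines and NMMA, and 28 and 127 with NMMA. Among these clusters, 1 of 187 cells had *Glp1r* and *Gabbr2* among its 10 leading genes. A fit that counted the insulin-led cells as β-cells was among the alternatives. At most 2 kept barcodes were shared between any 2 libraries.

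The replicates differed most in *Glp1r*. Over the 4 conditions, its mean level in β-cells was 2.76 CPM in replicate 1 and 254 CPM in replicate 2, a 92.2-fold difference and the 4th largest rise among 12753 genes. Of the other 8 receptors, *Oxtr* differed 2.18-fold, *Gabbr2* 1.501-fold and *Ffar1* 1.20-fold in the same direction, and *Ghsr* 2.526-fold on 0 to 3 UMIs per library. *Gcgr* was lower in replicate 2 (0.545-fold), and *Gipr*, *Adra2a* and *Sstr3* were at 0.873-fold to 0.986-fold. The matrices of the replicates were made with different CellRanger versions and gene lists, and these and the replicate cannot be told apart. *Glp1r* levels are therefore given for each replicate.

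Untreated cells of different classes were compared at a depth of 2500 UMIs per cell, as a description (classes were made from the same cells, so no test applies). *Ffar1* was detected in 24.98% of 2170 β-cells, 2.69% of 186 α-cells and 1.68% of 119 δ-cells. In classes not known for the receptor its share was 1.04% of 96 endothelial cells, 2.35% of 85 macrophages and 0% of 57 mesenchymal cells, so that the α- and δ-cell shares were near background. *Sstr3* was detected in 15.7% of β-, 8.06% of α- and 5.04% of δ-cells, above the 0 to 1.75% of the 3 non-endocrine classes. *Gabbr2* was detected in 11.6% of β-cells, and its shares in α-cells (0.538%) and δ-cells (0%) did not exceed the 3.53% of macrophages. *Gipr* (6.91% of β-cells), *Adra2a* (6.91%) and *Gcgr* (4.93%) were likewise highest in β-cells. *Oxtr* had the opposite order, with 16.1% of α-cells, 5.88% of δ-cells and 0.0922% of β-cells. *Ghsr* was detected in 5.04% of δ-cells and in none of the β- or α-cells. For *Glp1r*, whose replicates differed, the shares in replicate 1 were 1.19% of 1598 β-cells, 0% of 94 α-cells (which allows a share of up to 3.19%) and 0% of 83 δ-cells (up to 3.61%). Both limits are for cells with a UMI at this depth in that library, for counting error only. In replicate 2 the shares were 61.4% of 572 β-cells, 2.17% of 92 α-cells and 22.2% of 36 δ-cells, against 3.51% of 57 macrophages, so that the α-cell share did not exceed background.

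**Figure D1:**
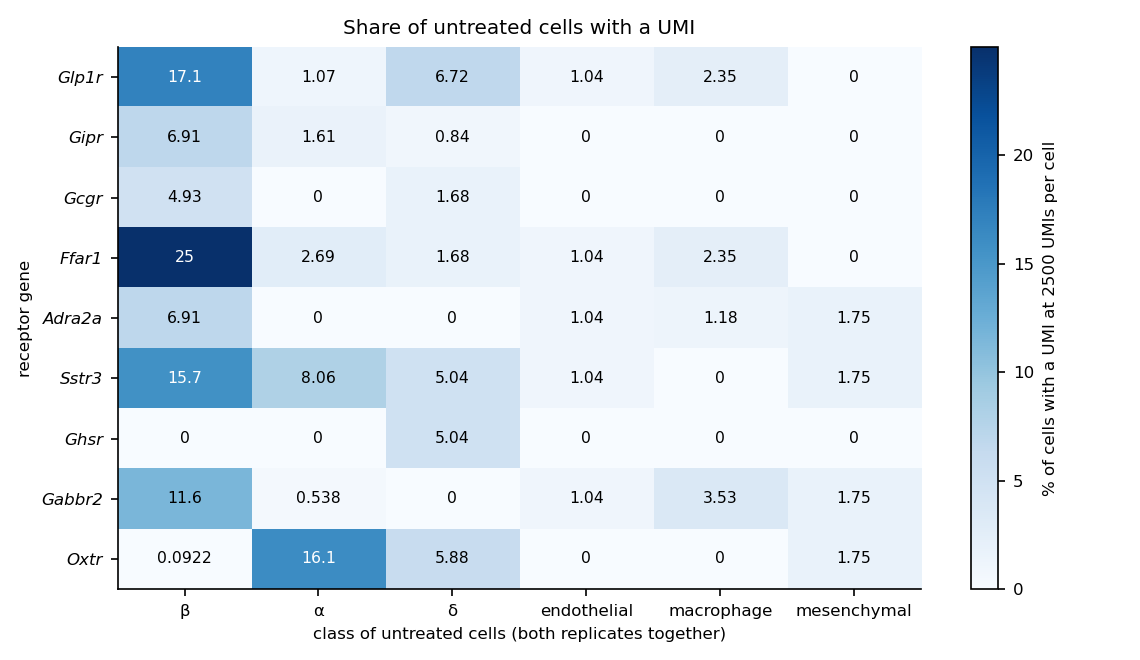
Share of untreated cells (percent, colour and number) with at least 1 UMI of each receptor gene (rows) in 6 classes of cells (columns), with each cell thinned to 2500 UMIs and both replicates pooled. *Oxtr* peaks in α-cells and *Ghsr* in δ-cells, and the other 7 receptors peak in β-cells.

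Cytokine exposure lowered 5 of the receptors in β-cells. Of 8 receptors tested (*Ghsr* was at 0 to 3 UMIs per library and was not), 5 fell and 0 rose after cytokines, where 22.3% of the 12753 genes tested fell and 23.6% rose. Of the 5, 3 remained called without the untreated library of replicate 1 and 2 without the cytokine library of replicate 1. *Adra2a* was lost in every fit that left out 1 library, and *Gcgr* also without the cytokine library of replicate 2. Shares of all genes called are not given for the fits that left out 1 library. The median log2 change of the 8 receptors tested was -1.73, against 0.00 over all genes tested. The receptors were chosen with earlier results of these data known, so these counts and this median only describe the list. All adjusted p-values are from edgeR's quasi-likelihood test on the library sums, with Benjamini-Hochberg adjustment over all genes of the class. Because replicates with the same number came from the same pool of islets, the fit with the replicate as a block is given where it changes a call. With the block 7 receptors fell, where 30.7% of genes fell and 32.2% rose. From untreated to cytokines, the 10 β-cell markers went from 480100 and 444000 CPM to 397500 and 406000 CPM in these sums, led by *Ins2*. All 8 ductal markers were detected in these 4 sums and went from 473 and 515 CPM, led by *Krt7*, to 1130 and 904 CPM, led by *Krt18*. Their part in the receptor changes was not tested.

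**Figure D2:**
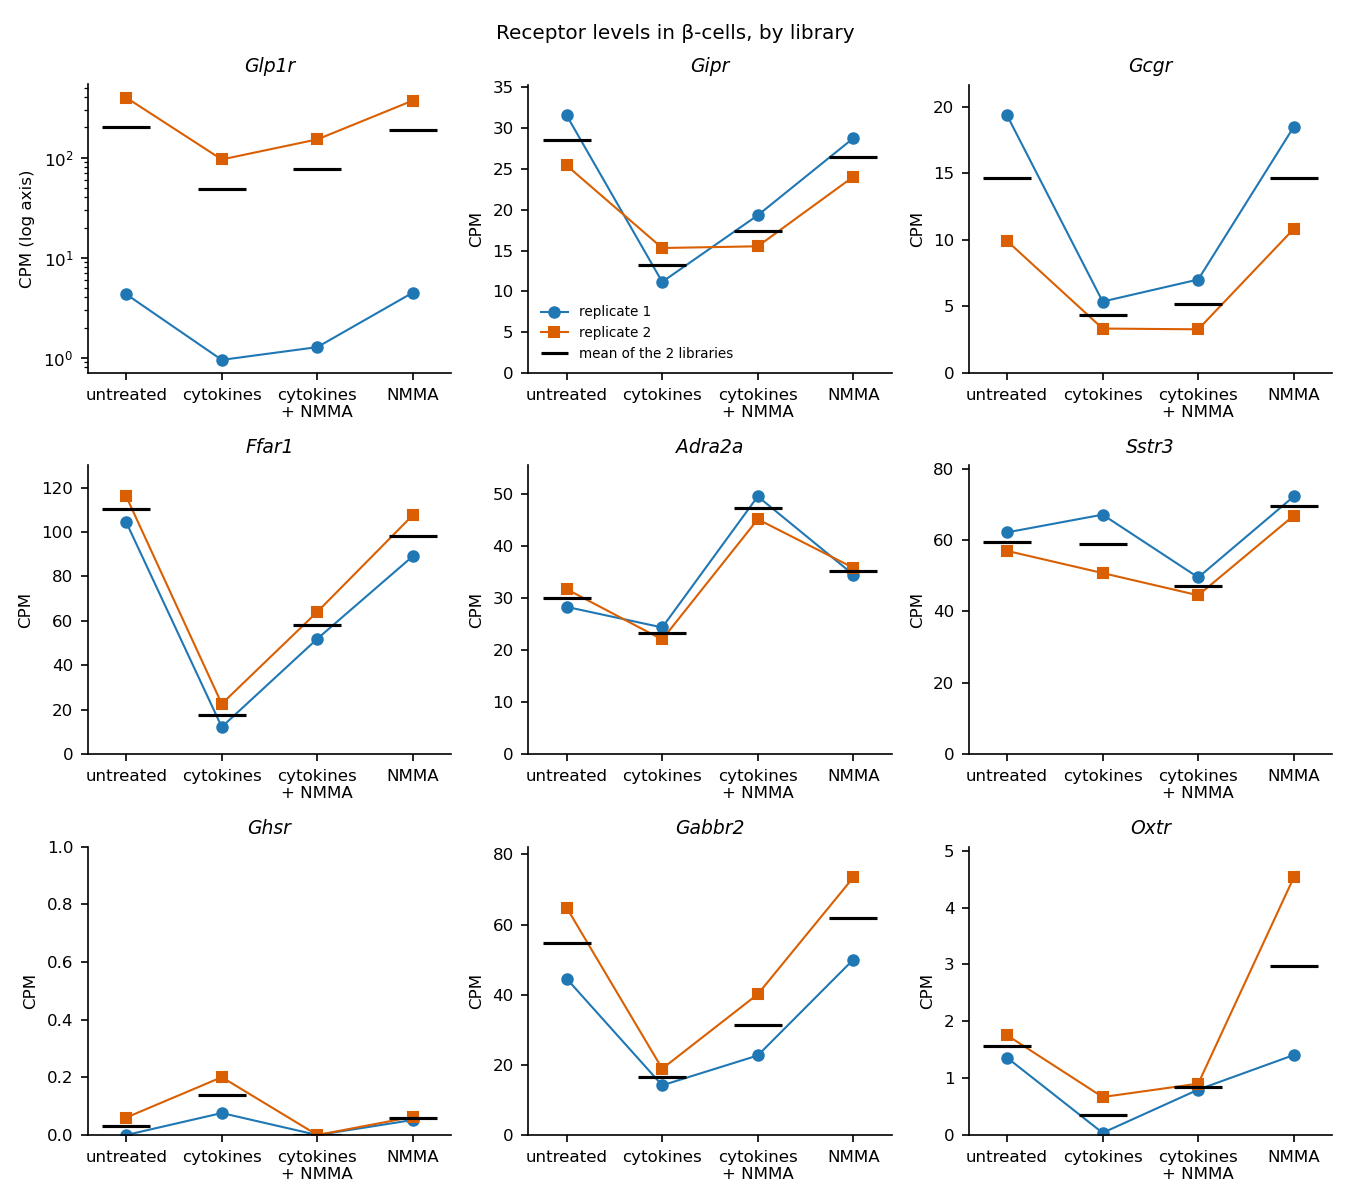
Level (CPM, 1 panel per receptor, vertical axis) in β-cells by condition (horizontal axis), with a line per replicate and a bar for the mean of the 2 libraries, and a log axis for *Glp1r* only. *Ffar1*, *Gipr* and *Gabbr2* are lowest with cytokines in both replicates, *Gcgr* is low in all 4 libraries with cytokines, and *Adra2a* is highest with cytokines and NMMA.

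Among the receptors that raise cAMP, *Glp1r* was in replicate 1 at 4.31 CPM untreated, 0.952 after cytokines alone, 1.28 after cytokines given with NMMA and 4.48 after NMMA alone. In replicate 2 the same libraries held 397, 95.7, 152 and 371 CPM. Within each replicate the cytokine library was the lowest, 2.18 and 2.05 below untreated and 0.42 and 0.67 below cytokines with NMMA on the log2 scale in replicates 1 and 2. Without a replicate term the difference was not called (log2 change -2.06 ± 3.62, adjusted p = 0.688), and with the replicate block it was (-2.07 ± 0.12, adjusted p = 2.19e-10). The log2 ratios of the replicates were close, although their levels were 92.2-fold apart on average.

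*Gipr* was at 31.6 and 25.4 CPM untreated, 11.2 and 15.3 with cytokines, 19.3 and 15.5 with cytokines and NMMA, and 28.8 and 24.0 with NMMA. The untreated and NMMA libraries were above all 4 cytokine libraries, so that these groups did not overlap. *Gipr* fell with cytokines by 1.116 ± 0.20 on the log2 scale (adjusted p = 0.0020). *Gcgr* was at 19.4 and 9.93 CPM untreated, 5.37 and 3.34 with cytokines, 7.03 and 3.28 with cytokines and NMMA, and 18.5 and 10.8 with NMMA. Replicate 2 was lower than replicate 1 in each condition, and both replicates fell with cytokines. The decrease of *Gcgr* was 1.74 ± 0.50 (adjusted p = 0.029). The call for *Gcgr* was lost when the untreated library of replicate 1 or either cytokine library was left out (adjusted p = 0.140, 0.0886 and 0.145 without untreated replicate 1, cytokines replicate 1 and cytokines replicate 2).

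*Ffar1* showed the deepest decrease of the receptors called. Its level was 104 and 116 CPM untreated, 12.2 and 22.6 with cytokines, 51.9 and 64.0 with cytokines and NMMA, and 89.1 and 108 with NMMA. The cytokine libraries were far below all others, and the libraries with cytokines and NMMA lay between them and the untreated ones. *Ffar1* fell with cytokines by 2.67 ± 0.28 on the log2 scale (adjusted p = 0.000187). When each β-cell was thinned to 10000 UMIs, *Ffar1* was detected in 62.7% and 60.1% of untreated β-cells, 8.76% and 17.4% with cytokines, 37.7% and 36.3% with cytokines and NMMA, and 56.4% and 62.7% with NMMA. Unthinned, the shares were 82.6% and 76.2% untreated and 19.4% and 31.8% with cytokines.

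The 3 receptors coupled to Gi did not move together. *Gabbr2* was at 44.6 and 64.8 CPM untreated, 14.2 and 18.9 with cytokines, 22.7 and 40.1 with cytokines and NMMA, and 50.02 and 73.5 with NMMA. It fell with cytokines by 1.73 ± 0.34 on the log2 scale (adjusted p = 0.0058), and without the cytokine library of replicate 1 the adjusted p was 0.0555. *Adra2a* was at 28.2 and 31.6 CPM untreated, 24.3 and 22.0 with cytokines, 49.5 and 45.1 with cytokines and NMMA, and 34.4 and 35.8 with NMMA. The highest libraries were the 2 with cytokines and NMMA, and the lowest the 2 with cytokines alone. The decrease of *Adra2a* with cytokines was small (0.37 ± 0.12, adjusted p = 0.037) and was lost in 12 of the alternatives, among them each of the 8 fits that left out 1 library (adjusted p = 0.0522 to 0.182) and the fit to thinned cells (adjusted p = 0.204). *Sstr3* was at 62.1 and 57.0 CPM untreated, 67.1 and 50.7 with cytokines, 49.5 and 44.5 with cytokines and NMMA, and 72.2 and 66.8 with NMMA. The untreated and cytokine libraries overlapped, with a log2 difference of -0.01 ± 0.15 (adjusted p = 0.9496).

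*Oxtr* was scarce in β-cells, at 1.36 and 1.75 CPM untreated, 0.0381 and 0.668 with cytokines, 0.798 and 0.903 with cytokines and NMMA, and 1.41 and 4.53 with NMMA. Its difference with cytokines was -2.36 ± 0.94 (adjusted p = 0.0725) and passed with the replicate block (adjusted p = 0.0018). These sums rested on 76 UMIs in the untreated and 11 UMIs in the cytokine β-cells. The α-cell markers, of cells where *Oxtr* was more often detected, summed to 608 and 740 CPM in the same untreated and 442 and 4251 CPM in the same cytokine libraries, led by *Gcg*, and their part in the *Oxtr* values was not tested.

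With cytokines and NMMA 3 receptors were called in β-cells, and 1 of them rose. Against untreated β-cells, *Ffar1* fell by 0.93 ± 0.26 on the log2 scale (adjusted p = 0.036) and *Gipr* by 0.71 ± 0.20 (adjusted p = 0.031). *Adra2a* rose by 0.66 ± 0.12 (adjusted p = 0.0052). In this comparison 9.79% of genes fell and 12.9% rose. Without the untreated library of replicate 1 none of the 3 remained called (adjusted p = 0.102 for *Ffar1*, 0.208 for *Gipr* and 0.0617 for *Adra2a*). With the replicate block 6 receptors fell and 1 rose, as many calls as the 7 with cytokines alone, where 18.8% of genes fell and 22.1% rose, and the block added *Gcgr* (log2 change -1.50, adjusted p = 3.21e-07), *Gabbr2* (-0.83, 6.14e-06), *Glp1r* (-1.44, 2.60e-08) and *Sstr3* (-0.34, 0.0106).

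The comparison of cytokines with and without NMMA separates these conditions directly. *Ffar1* was lower with cytokines alone than with cytokines and NMMA, by 1.75 ± 0.27 on the log2 scale (adjusted p = 0.0061), and *Adra2a* was lower by 1.03 ± 0.13 (adjusted p = 0.0026). Of all genes 10.4% were lower and 8.92% higher. *Gipr* (log2 difference -0.41 ± 0.20, adjusted p = 0.185) and *Gcgr* (-0.25 ± 0.52, adjusted p = 0.781) did not pass, and for *Gcgr* the replicates had opposite signs. With the replicate block, where 20.4% of genes were lower and 20.5% higher, *Gabbr2* (-0.88, adjusted p = 1.58e-05) and *Glp1r* (-0.64, adjusted p = 0.000624) were also lower with cytokines alone, and *Sstr3* was higher (0.32, adjusted p = 0.0155). Scaled by total UMIs, *Sstr3* in replicate 2 was at 45.7 CPM with cytokines and 46.8 CPM with cytokines and NMMA, so its direction there depended on the scaling.

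With NMMA alone none of the receptors was called in β-cells. By edgeR 0% of the genes tested in β-cells were called (938 at an unadjusted p under 0.05, and 12 called by DESeq2), and with the block 3.54% were, none of them a receptor of this list. The largest difference was that of *Oxtr* (0.93 ± 0.74, adjusted p = 0.864), which rested on the replicate 2 library. The 4 comparisons share control libraries, so their values are set side by side only.

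**Figure D3:**
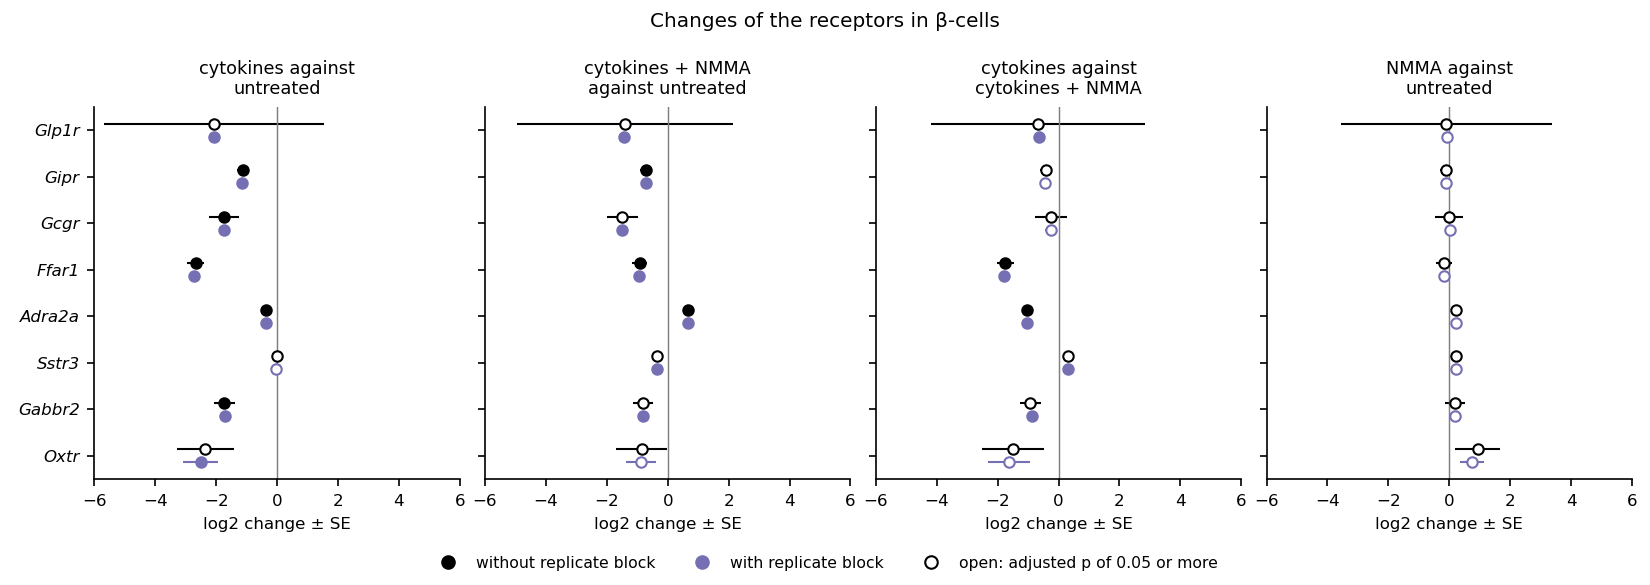
Log2 change ± SE (horizontal axis) of 8 receptors (vertical axis) in β-cells in 4 comparisons (panels), from edgeR without (black) and with (purple) the replicate as a block, with open points for an adjusted p of 0.05 or more. The bar of *Glp1r* shortens from 3.62 to 0.12 with the block in the comparison of cytokines with untreated, and *Adra2a* is on opposite sides of 0 with cytokines and with cytokines and NMMA.

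In α-cells *Oxtr* was the 1 receptor called without the replicate block, and with the block *Ffar1* and *Glp1r*, given below, were called as well. It was at 81.8 and 85.7 CPM untreated, 0 and 7.98 with cytokines, 33.5 and 33.5 with cytokines and NMMA, and 135 and 149 with NMMA. No group overlapped another, and the libraries with NMMA alone were the highest. Against untreated α-cells *Oxtr* fell by 3.97 ± 0.42 on the log2 scale with cytokines (adjusted p = 5.88e-06) and by 1.32 ± 0.28 with cytokines and NMMA (adjusted p = 0.0047). The call with cytokines and NMMA was lost without the library of that condition of replicate 2 (adjusted p = 0.0531). Replicate 1 held 0 UMIs of *Oxtr* with cytokines against 116 untreated, at least 14.7-fold lower with a floor of 3 UMIs per library, and replicate 2 held 9 against 166. With cytokines alone it was lower than with cytokines and NMMA by 2.65 ± 0.46 (adjusted p = 0.0017). With NMMA alone the log2 difference was 0.76 ± 0.26, higher in 2 of 2 replicates, and did not pass (adjusted p = 1). At 8500 UMIs per cell, *Oxtr* was detected in 42.0% and 43.0% of untreated α-cells and in 0% and 3.45% with cytokines. The 0% is of 39 cells, which allows a share of up to 7.69% of cells with a UMI at this depth in that library, for counting error only.

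Of the other receptors, *Ffar1*, *Gipr*, *Glp1r* and *Sstr3* had enough UMIs to be tested in α-cells, and 1 of the 5 was called with cytokines, where 21.7% of 9696 genes were. The shares of genes called were 8.29% with cytokines and NMMA, 10.4% between cytokines with and without NMMA, and 0% with NMMA alone (334 genes at an unadjusted p under 0.05, and 0 called by DESeq2). *Ffar1* was at 16.2 and 26.3 CPM untreated, 7.40 and 11.5 with cytokines, 10.99 and 21.8 with cytokines and NMMA, and 21.5 and 21.9 with NMMA. Both cytokine libraries were below both untreated ones, with a log2 difference of -1.10 ± 0.44 (adjusted p = 0.0849) that passed with the block (-1.16 ± 0.40, adjusted p = 0.0246). *Sstr3* was between 16.5 and 28.2 CPM in all 8 α-cell sums, and its groups overlapped (log2 difference with cytokines -0.06 ± 0.34, adjusted p = 0.932). *Gipr* was between 6.19 and 13.3 CPM and did not pass (0.05 ± 0.50, adjusted p = 0.961). With the block, 29.0% of genes were called with cytokines, 13.5% with cytokines and NMMA, 18.4% between these conditions and 0.0413% with NMMA alone.

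*Glp1r* was at 0 UMIs in all 4 α-cell sums of replicate 1. In replicate 2 it was at 5.68 CPM untreated (11 UMIs), 17.7 with cytokines (20 UMIs), 29.4 with cytokines and NMMA (58 UMIs) and 10.9 with NMMA (17 UMIs). The block called these differences with cytokines (adjusted p = 0.0375) and with cytokines and NMMA (adjusted p = 0.000666), on replicate 2 alone. The β-cell markers given above were also higher in these α-cell sums. In the replicate 2 sums *Glp1r* had 11, 20 and 58 UMIs beside 13258, 44877 and 74196 *Ins2* UMIs in α-cells (untreated, cytokines, and cytokines given with NMMA), and 6560, 1432 and 1850 UMIs beside 4454383, 4903844 and 3091092 in β-cells. *Adra2a* (1 to 15 UMIs in 7 α-cell sums and 0 in that with NMMA of replicate 1), *Gabbr2* (1 to 19 UMIs), *Gcgr* (0 to 4 UMIs) and *Ghsr* (0 to 5 UMIs) were too low to test. *Adra2a* was highest with cytokines and NMMA, at 8.24 and 5.08 CPM against 1.41 and 0.516 untreated. The part of β-cell RNA in the *Ffar1*, *Glp1r*, *Adra2a* and *Gabbr2* values of α-cells was not tested.

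In δ-cells none of 5 receptors tested was called in any comparison by edgeR. The shares of 8499 genes called were 7.02% with cytokines, 7.7% with cytokines and NMMA, 0.835% between these conditions and 0% with NMMA alone (191 genes at an unadjusted p under 0.05, and 0 called by DESeq2). *Ghsr* was at 16.4 and 20.1 CPM untreated (15 and 11 UMIs), 13.1 and 0 with cytokines (2 and 0 UMIs), 11.9 and 7.48 with cytokines and NMMA, and 27.4 and 4.70 with NMMA. The NMMA libraries lay on both sides of the untreated ones, and a difference with cytokines was not detectable at this depth (log2 difference -1.57 ± 1.15, adjusted p = 0.491). *Oxtr* was at 32.7 and 56.5 CPM untreated, 0 and 15.9 with cytokines, 20.6 and 17.9 with cytokines and NMMA, and 52.9 and 56.5 with NMMA. All 4 libraries with cytokines were below all 4 without. The 10 α-cell markers summed to 5620 and 30690 CPM in the untreated δ-cell sums, 1741 and 8811 with cytokines, 5680 and 7181 with cytokines and NMMA, and 6181 and 42940 with NMMA, led by *Gcg*, and the PP-cell markers to 91020 and 133800, 46150 and 28620, 46550 and 62590, and 96850 and 93310 CPM in the same order, led by *Pyy*. Both lists were lower with cytokines, and the part of α- and PP-cell RNA in the δ-cell *Oxtr* values was not tested. The differences of *Oxtr* were -2.27 ± 0.72 with cytokines (adjusted p = 0.0677) and -1.14 ± 0.40 with cytokines and NMMA (adjusted p = 0.104), and both passed with the block (adjusted p = 0.0271 and 0.0300). The cytokine sums held 0 and 3 UMIs of *Oxtr*, against 30 and 31 untreated, so the size of that change is uncertain. With a floor of 3 UMIs, replicate 1 was at least 1.67-fold lower.

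*Sstr3* in δ-cells was at 36.0 and 23.7 CPM untreated, 13.1 and 10.6 with cytokines (2 UMIs in each), 42.2 and 41.9 with cytokines and NMMA, and 27.4 and 29.8 with NMMA. The cytokine libraries were the lowest, with a log2 difference from untreated of -1.38 ± 0.60 (adjusted p = 0.204) and from cytokines with NMMA of -1.83 ± 0.58 (adjusted p = 0.176). The part of PP-cell RNA in these *Sstr3* values was not tested either. *Glp1r* in δ-cells was at 0 to 2 UMIs in replicate 1 and at 63.8, 26.5, 20.9 and 64.3 CPM in replicate 2 (in the order of the conditions above). With the block it was lower with cytokines and NMMA (-1.61 ± 0.49, adjusted p = 0.0196), on replicate 2 alone (35 UMIs untreated and 14 with cytokines and NMMA, against 1 and 0 in replicate 1). *Adra2a* was at 1 to 11 UMIs in 7 sums and 0 in the cytokine sum of replicate 1, and was not called (log2 difference -0.86 ± 1.35 with cytokines, adjusted p = 0.792). *Gipr* (0 to 12 UMIs per sum), *Ffar1* (0 to 14), *Gcgr* (1 to 6) and *Gabbr2* (0 to 3) were too low to test in δ-cells. *Gipr* and *Ffar1* were at 0 UMIs in both cytokine sums, where the floor of 3 UMIs stood at 19.6 and 15.9 CPM, above their untreated levels of 8.72 and 12.8 (*Gipr*) and 4.36 and 7.30 CPM (*Ffar1*). With the block the shares of genes called were 10.9% with cytokines, 13.6% with cytokines and NMMA, 3.45% between them and 0% with NMMA alone.

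**Figure D4:**
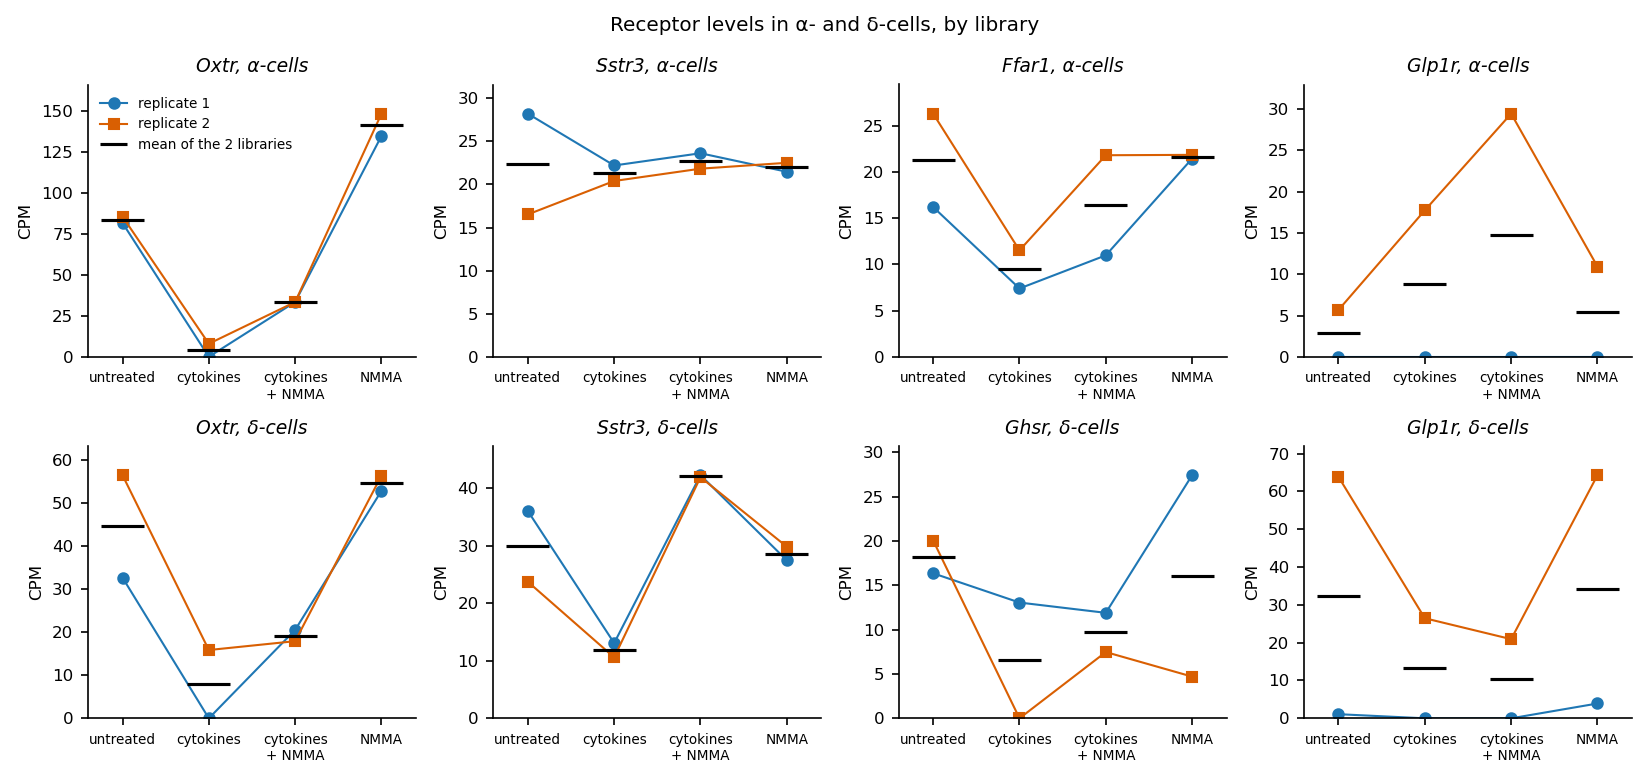
Level (CPM, vertical axis) of 4 receptors in α-cells (top) and 4 in δ-cells (bottom) by condition, with a line per replicate and a bar for the mean of the 2 libraries. *Oxtr* is lowest with cytokines in both classes, at 0 and 7.98 CPM in α-cells, and *Glp1r* is at or near 0 in replicate 1.

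Whether α- and β-cells responded differently to cytokines was tested by an interaction of class and condition over both classes, with the library as a block. The log2 change in α-cells minus that in β-cells was 1.49 ± 0.44 for *Ffar1* (adjusted p = 0.037), which was lower with cytokines in both classes but by less in α-cells. For *Glp1r* it was 3.72 ± 0.52 (adjusted p = 9.59e-07), with higher levels in α-cells and lower ones in β-cells with cytokines. Of 12738 genes 4.22% differed. The β-cell markers in the α-cell sums went from 11080 and 12640 CPM untreated to 38040 and 47720 CPM with cytokines, and the untreated α-cell share of *Ffar1* was near background. The part of β-cell RNA in both differences was not tested. By DESeq2 neither was called (adjusted p = 0.0712 for *Ffar1* and 0.0715 for *Glp1r*). The difference of *Glp1r* came from replicate 2, and it was 0.15 without the cytokine library of replicate 2 (adjusted p = 0.984) and 5.69 without the untreated one (adjusted p = 0.586). The difference of *Ffar1* was called without the untreated library of replicate 2 but not without the untreated library of replicate 1 (adjusted p = 0.207) or without the cytokine library of replicate 1 (0.132) or 2 (0.356), nor with doublets removed (0.0637), thinned cells (0.486) or total UMI scaling (0.0932). *Oxtr* (-2.24 ± 0.81, adjusted p = 0.114) and *Sstr3* (0.07 ± 0.33, adjusted p = 0.955) did not pass. Of δ- against β-cells none of the receptors passed, where 3.11% of 12897 genes differed, and *Gabbr2* came nearest (4.24 ± 1.37, adjusted p = 0.0634) on 0 to 3 UMIs per δ-cell sum.

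Other genes of receptor signalling were described in β-cells from fixed lists, also chosen with earlier results of these data known. Of 23 other islet receptors tested (50 listed), 11 fell and 3 rose with cytokines, with a median log2 change of -0.69, where 22.3% of all genes fell and 23.6% rose. *Galr1*, a galanin receptor, fell from 20.2 and 22.8 CPM to 1.18 and 2.34 CPM (-3.66 ± 0.35, adjusted p = 0.000119). *Ffar3*, a receptor of short-chain fatty acids, fell from 9.46 and 11.1 to 0.647 and 1.47 CPM (-3.36 ± 0.36, adjusted p = 0.000162), and *Gpr119*, a lipid receptor coupled to Gs, from 6.31 and 4.48 to 0.838 and 0.468 CPM (-2.98 ± 0.33, adjusted p = 0.000163). The cytokine libraries were below all others for the 3 genes. *Ffar2*, another receptor of short-chain fatty acids, fell by 1.41 ± 0.25 with cytokines (adjusted p = 0.0021) and had a log2 difference of 0.07 ± 0.24 with cytokines and NMMA (adjusted p = 0.875). *Adgrl1*, a latrophilin, fell by 1.64 ± 0.15 (adjusted p = 7.68e-05), *Adgrg1*, an adhesion receptor, fell by 0.69 ± 0.13 (adjusted p = 0.0025), and *Gabbr1*, the partner of *Gabbr2* in the GABA-B receptor, did not pass (0.24 ± 0.15, adjusted p = 0.212). *Gpr158* was at 36.4 and 32.1 CPM untreated and at 33.6 and 25.1 CPM with cytokines. With the replicate block 14 of the 23 fell and 5 rose (30.7% and 32.2% of all genes).

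With cytokines and NMMA, 8 of the 23 other receptors fell and 3 rose, where 9.79% of all genes fell and 12.9% rose. *Hcar2*, a receptor of hydroxy-carboxylic acids, rose from 3.39 and 3.27 CPM to 21.9 and 16.3 CPM (2.52 ± 0.19, adjusted p = 2.92e-05). *Ptger4*, a prostaglandin E2 receptor, rose by 2.10 ± 0.60 (adjusted p = 0.0345). It had 17 UMIs untreated and 45 with cytokines and NMMA, so the size of its rise is uncertain. *Gpr119* fell by 2.002 ± 0.31 (adjusted p = 0.0018). With the block 12 fell and 6 rose (18.8% and 22.1% of all genes). Between cytokines with and without NMMA, 8 were lower and 1 higher with cytokines alone (10.4% and 8.92% of all genes), among them *Ffar3* (-1.99 ± 0.38, adjusted p = 0.0098), *Galr1* (-1.87 ± 0.36, adjusted p = 0.0111) and *Ffar4* (-1.57 ± 0.29, adjusted p = 0.0091). With the block 11 were lower and 2 higher (20.4% and 20.5% of all genes).

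In α-cells 7 of 15 other receptors tested fell and 1 rose with cytokines, where 772 of the 9696 genes fell and 1336 rose. With the block 8 fell and 1 rose, where 1091 genes fell and 1718 rose. *Gpr119* fell from 40.2 and 36.6 CPM to 3.70 and 2.66 CPM (-3.63 ± 0.49, adjusted p = 4.62e-05), *Avpr1b*, a vasopressin receptor, by 1.96 ± 0.51 (adjusted p = 0.0183) and *Vipr1*, a receptor of vasoactive intestinal peptide, by 1.95 ± 0.40 (adjusted p = 0.0018). The cytokine sums held 2 and 3 UMIs of *Gpr119*, no more than the floor, against 57 and 71 untreated, so the size of its decrease is uncertain. *Ffar2* was at 37.4 and 41.3 CPM in untreated α-cells, 9.25 and 15.1 with cytokines, and 105 and 78.2 with cytokines and NMMA. It fell with cytokines (-1.60 ± 0.32, adjusted p = 0.0016) and rose with cytokines and NMMA (1.21 ± 0.23, adjusted p = 0.0017). In δ-cells 1 of 8 other receptors tested fell with cytokines, where 210 of 8499 genes fell and 387 rose. It was *Ffar2* (adjusted p = 0.0041), at 55.6 and 52.9 CPM untreated (51 and 29 UMIs) and 0 and 10.6 CPM with cytokines (0 and 2 UMIs), where the floor of 3 UMIs stood at 19.6 and 15.9 CPM. No size is given for a change on so few UMIs, and the part of PP-cell RNA, whose markers were lower in the same sums, was not tested.

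Among ligands and the enzymes that make them, 4 of 10 tested fell and 1 rose in β-cells with cytokines, where 22.3% of all genes fell and 23.6% rose. *Ucn3*, which encodes urocortin 3, fell from 166 and 128 CPM to 24.4 and 21.8 CPM (-2.67 ± 0.19, adjusted p = 1.99e-05). *Th*, tyrosine hydroxylase of catecholamine synthesis, fell by 2.22 ± 0.27 (adjusted p = 0.000258), and *Gal*, which encodes galanin, the ligand of *Galr1*, rose by 2.44 ± 0.53 (adjusted p = 0.0072). *Gad1*, which makes GABA, a ligand of the receptor that holds *Gabbr2*, fell by 0.63 ± 0.13 (adjusted p = 0.0042). *Sst*, the ligand of *Sstr3*, fell in δ-cells by 1.24 ± 0.29 with cytokines (adjusted p = 0.0113) and by 0.97 ± 0.29 with cytokines and NMMA (adjusted p = 0.046). *Gcg*, whose product gives glucagon, had a log2 difference of 0.63 ± 0.35 in α-cells with cytokines (adjusted p = 0.258) that passed with the block (0.55 ± 0.17, adjusted p = 0.0092). This depended on the scaling. By total UMIs *Gcg* went from 188300 to 226600 CPM in replicate 1 but from 165300 to 136600 CPM in replicate 2. *Gip*, *Ghrl* and *Oxt*, which encode GIP, ghrelin and oxytocin, were too low to test in β-cells. With cytokines and NMMA, 5 fell and 1 rose (9.79% and 12.9% of all genes), and *Ucn3* (-3.11 ± 0.20, adjusted p = 1.08e-05), *Th* (-2.68 ± 0.29) and *Ddc*, which makes dopamine (-2.39 ± 0.22, adjusted p = 9.38e-05), led them. *Npy*, neuropeptide Y, was the 1 ligand of 10 that differed between cytokines with and without NMMA (2.21 ± 0.49 higher with cytokines alone, adjusted p = 0.0164), and with the block 3 ligands were higher. The size for *Npy* is uncertain, as it had 49 UMIs with cytokines and 8 with cytokines and NMMA. Of all genes 8.92% were higher and 10.4% lower in this comparison, and with the block 20.5% and 20.4%.

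The shares of all genes against which the following counts in β-cells stand are 23.6% higher and 22.3% lower with cytokines, and 12.9% higher and 9.79% lower with cytokines and NMMA. Of 22 G protein subunits tested, 7 rose and 4 fell with cytokines (median 0.21). *Gna14* (2.67 ± 0.27, adjusted p = 0.000109), an α subunit of the Gq family, *Gng2* (2.51 ± 0.21, adjusted p = 3.73e-05), a γ subunit, and *Gna13* (1.44 ± 0.15, adjusted p = 0.000114), an α subunit of the G12 family, rose the most. With cytokines and NMMA, 5 rose and 2 fell. *Gna14* rose by 3.45 ± 0.27 (adjusted p = 3.86e-05) and *Gnai1*, an inhibitory α subunit, fell by 1.39 ± 0.22 (adjusted p = 0.0020). Of 31 genes of the cAMP arm, 11 fell and 3 rose with cytokines (median -0.20). The phosphodiesterases *Pde3a* (-2.76 ± 0.45, adjusted p = 0.0014), *Pde7b* (-2.25 ± 0.52, adjusted p = 0.0076) and *Pde10a* (-1.995 ± 0.13, adjusted p = 1.31e-05) led the decreases. These enzymes break down cyclic nucleotides. The size for *Pde7b* is uncertain, as it had 71 UMIs untreated and 11 with cytokines. *Crem*, a transcription factor of the cAMP response, rose by 1.54 ± 0.12 with cytokines and NMMA (adjusted p = 3.57e-05), where 5 of the list fell and 3 rose. *Pde10a* was lower by 2.12 ± 0.13 with cytokines alone than with cytokines and NMMA (adjusted p = 0.000453).

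Of 13 genes of the phospholipase C arm, 5 fell and 2 rose with cytokines (median -0.23). The inositol trisphosphate receptors *Itpr2* (-2.37 ± 0.36, adjusted p = 0.0011) and *Itpr1* (-1.43 ± 0.20, adjusted p = 0.000583), which release calcium from stores, and the phospholipase *Plcb1* (-0.83 ± 0.16, adjusted p = 0.0029) fell. With cytokines and NMMA, 4 fell and 2 rose, and *Itpr3* rose by 0.82 ± 0.16 (adjusted p = 0.0069). Of 22 genes of desensitisation (receptor kinases, arrestins, RGS proteins that shorten G protein signals, and sorting partners), 8 rose and 4 fell with cytokines (median 0.19). *Rgs19* (1.33 ± 0.23, adjusted p = 0.0016) and *Rgs4* (1.27 ± 0.17, adjusted p = 0.000472) rose and the receptor kinase gene *Grk4* fell (-1.31 ± 0.34, adjusted p = 0.0125). With cytokines and NMMA, 6 rose and 5 fell, among them *Rgs4* (2.25 ± 0.18, adjusted p = 3.85e-05) and *Rgs16* (1.61 ± 0.25, adjusted p = 0.0018) upwards. With NMMA alone *Rgs4* was at 100.8 and 97.7 CPM, above the 43.5 and 54.9 CPM of untreated β-cells. In that comparison 0 genes of the list were called by edgeR, and with the block 1 was higher, where 3.54% of all genes were called. *Rgs3* fell by 1.31 ± 0.28 with cytokines and NMMA (adjusted p = 0.0089) and was 1.81 ± 0.28 higher with cytokines alone than with cytokines and NMMA (adjusted p = 0.0048).

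With the replicate block the counts with cytokines were 10 higher and 5 lower for the G protein subunits, 3 and 13 for the cAMP arm, 3 and 6 for the phospholipase C arm, and 10 and 6 for desensitisation, where 32.2% of all genes were higher and 30.7% lower. For cytokines and NMMA they were 6 higher and 4 lower for the G protein subunits, 6 and 9 for the cAMP arm, 4 and 5 for the phospholipase C arm, and 8 and 7 for desensitisation, where 22.1% of all genes were higher and 18.8% lower.

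**Figure D5:**
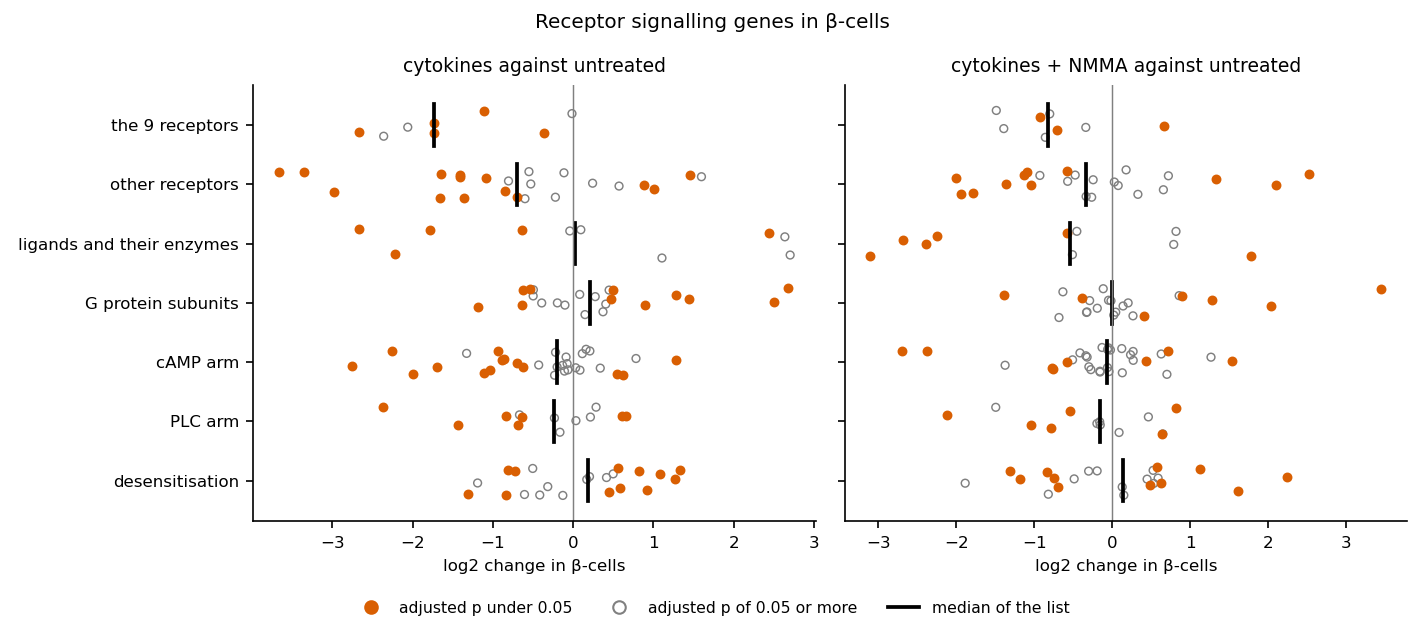
Log2 change in β-cells (horizontal axis) of each tested gene of 7 lists (vertical axis), with cytokines (left) and with cytokines and NMMA (right) against untreated, filled for an adjusted p under 0.05 and with a bar at the median of each list. The receptors described here, 8 of them tested, have the lowest median in both panels, at -1.73 and -0.83. All 7 lists were chosen with earlier results of these data known.

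The genes whose levels followed each receptor most closely over the 24 sums of β-, α- and δ-cells were sought among 8097 genes with at least 10 CPM on average, by Pearson's r of log2(CPM + 1). The points share libraries and the difference between classes, so that the values are a description, and *Glp1r*, whose replicates were far apart, was left out. They were *Rgs11* (r = 0.94) for *Gipr*, *Epb41l3* (0.94) for *Gcgr*, *Ntrk2* (0.94) for *Ffar1*, *Ins1*, which encodes insulin 1 (0.94), for *Gabbr2*, and *Dbpht2* (0.95) for *Oxtr*. *Serp1* came first for *Sstr3* (0.92) and was among the first 2 for *Adra2a* (0.84, after *AC078895.1* at 0.86). *Epb41l5* (0.89) came first for *Ghsr*, which rested on 78 UMIs in all.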

How the data were processed

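Raw UMI counts per gene and barcode were deposited by the authors as 1 matrix for each of the 8 libraries, made with CellRanger (3.0.0 in the headers of replicate 1, with 31053 genes, and 6.0.0 in those of replicate 2, with 32285 genes). The submitters' notes name the build mm10. The 30406 identifiers listed in both were used, of which 30329 are in GENCODE M21. Islets of a replicate came from 1 pool of 10 mice, so the replicate number pairs the libraries: deviations from the condition means correlated with a median of 0.667 (β-cells), 0.342 (α-cells) and 0.267 (δ-cells) over 6 pairs of conditions, and with a lowest of 0.165.

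Barcodes were kept with 200 to 5500 genes (replicate 1) or 6500 genes (replicate 2) and no more than 10% of UMIs from mitochondrial genes, the paper's limits; its other steps were not repeated. Cells were clustered with scanpy 1.11.5 and leidenalg 0.10.2 (2000 variable genes, 178 genes of the lists held out, 30 components, 20 neighbours, resolution 1) into 25 clusters, named by fixed markers, with 8306 cells named. The rules that left low-UMI and insulin-led clusters unnamed were set after the data were seen. Scrublet called 107 doublets (0.984%), which were kept except in an alternative.

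UMIs were summed per library and class and tested with edgeR 4.0.16 (robust quasi-likelihood, filterByExpr, TMM, 4 conditions in 1 fit, Benjamini-Hochberg over all genes, threshold 0.05). SE is the log2 change over the square root of F. Alternatives were DESeq2 1.42.0, other scalings, no filter, thinned cells, resolution 0.5 and fits without each library. An unplanned alternative counted the insulin-led cells as β-cells. For shares of cells, each cell was thinned to 10000 (β-cells), 8500 (α-cells) or 7000 UMIs (δ-cells), and shallower cells were left out. The floor of 3 UMIs covers counting error only. Without a block, p-values measure the spread between libraries of a condition, which came from 2 pools of islets. With the replicate or the library as a block, they measure the spread left after that term is taken out. Both rest on 2 pools only. The receptors and gene lists were chosen with earlier results of these data known. Named genes were, per comparison in β-cells and list, up to 3 with the largest change among those called with the same direction in both replicates, other receptors with at least 20 CPM in an untreated class, and ligands of the receptors. Not all of the receptors at that level are described for α- and δ-cells.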

Additional observations from a re-analysis of the deposited data

Results flagged for a closer look

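The responses of α- and β-cells to cytokines differed by the test of the difference for *Ffar1* (1.49 on the log2 scale, α-cells minus β-cells, lower in both) and *Glp1r* (3.72), as given above, but for neither by DESeq2 (adjusted p = 0.0712 and 0.0715). For *Glp1r* the α-cell value rests on replicate 2. The β-cell markers in the α-cell sums went from 11080 and 12640 CPM untreated to 38040 and 47720 CPM with cytokines, and the untreated α-cell share of *Ffar1* was near background; the part of β-cell RNA in both differences was not tested.

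With TMM scaling, in 4 further cases every library pair of one class moved one way and every pair of the other the opposite way, with the difference not tested. *Sstr3* with cytokines and NMMA against untreated was higher in δ-cells and lower in β-cells in both replicates, by at least 0.230 on the log2 scale. Between cytokines with and without NMMA, *Sstr3* was lower with cytokines alone in α-cells and in δ-cells but higher in β-cells, by at least 0.0898 (α- and β-cells) and 0.189 (δ- and β-cells). Scaled by total UMIs, the β-cell pair of replicate 2 turned (45.7 CPM with cytokines and 46.8 CPM with cytokines and NMMA). *Gipr* with NMMA was higher in α-cells and lower in β-cells, by at least 0.0803. None of these single responses passed edgeR's test without the block.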

How the results depend on the processing

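Refits of the receptor calls under the alternatives were on the same side of the threshold in 211 cases, were lost in 37 and changed direction in 0. Refits of differences not called stayed so in 1031 cases, passed in 46 and changed sign in 75. The number of receptors called with cytokines and NMMA in β-cells was 3, and 7 with the replicate block, 5 by DESeq2 and 6 with no filter. Between cytokines with and without NMMA it was 2, and 5 with the block or with no filter. In α-cells with cytokines it was 1, and 3 with the block and 2 with total UMI scaling or no filter, and with cytokines and NMMA 1, and 2 with the block or no filter. With cytokines and NMMA in β-cells, 2888 of all 12753 genes were called, 5213 with the block and 2461 by DESeq2. Between cytokines with and without NMMA 2463 were called, and 5213 with the block. In α-cells with cytokines, 2108 of 9696 genes were called, 2809 with the block and 3304 with total UMI scaling. With cytokines and NMMA 804 were called in α-cells, and 1308 with the block. The α- and β-cell difference had 2 receptors called, and 0 by DESeq2 and 1 (*Glp1r*) with doublets removed or thinned cells. In δ-cells the receptor counts of 0 became 1 with the block or no filter (cytokines), and 2 with the block and 1 at resolution 0.5 (cytokines and NMMA). Without thinning, 5 of 9 receptors had a lower share of δ-cells with cytokines in both replicates, against 2. The block changed no call of a receptor other than those given. Shares of all genes called are not given for the fits with no filter or thinned cells, or for those below without 1 library. The receptor counts of these fits do not tell whether a gain or loss of calls was particular to the receptors.

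Leaving out 1 library each gave 2 to 5, 0 to 3 and 2 calls for the 3 cytokine comparisons in β-cells (cytokines, cytokines with NMMA, and these against each other), 1, 0 to 1 and 1 in α-cells, and 0 to 1, 0 to 1 and 0 in δ-cells, with 0 for NMMA alone. The difference from β-cells had 0 to 3 calls for α-cells and 0 to 1 for δ-cells. In β-cells 3 remained without untreated replicate 1 and 2 without cytokines replicate 1.

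Scaling by total UMIs moved the median log2 change of all genes with cytokines to -0.206 in β-cells, -0.538 in α-cells and 0.121 in δ-cells, and the share of calls that were higher from 51.4% to 34.2%, 63.4% to 18.3% and 64.8% to 76.8%. The δ-cell sums with cytokines rested on 11 and 10 cells.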
